A study of Mus musculus with 8 samples.

Results

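The cells described here were chosen as macrophages of MC38 tumours, and were set apart by unique molecular identifiers (UMIs, each standing for 1 captured RNA molecule) of Inhba, Thbs1 and Cxcl3. A cell was a member if it had at least 3 UMIs in all of these signature genes together, at least 5 UMIs of the myeloid lysozyme gene Lyz2, and passed 6 exclusion terms: at most 3 UMIs of Ly6c2 and Plac8 (monocytes), at most 2 of Folr2, Cbr2 and Fcrls (resident macrophages), under 8 of Cxcl9, Ifit2, Ifit3 and Rsad2 (interferon response), at most 1 of Cd3d, Cd3e and Cd3g (T cells), under 10 of S100a8, S100a9, Retnlg, Csf3r and Cxcr2 (neutrophils) and at most 1 of Mki67, Top2a and Birc5 (dividing cells). The rule chose 1549 of 37757 cell barcodes: 185 and 598 in the LNP-Sirpa libraries, against 242 and 524 in the control libraries. The 5792 cells that passed the Lyz2 minimum and every exclusion but had under 3 signature UMIs are called signature-low cells, and numbered 561 and 1489 in the LNP-Sirpa libraries, against 1458 and 2284 in the control libraries.

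MC38 is a mouse colon carcinoma cell line, and the sequenced cells were CD45+ cells from its tumours, grown in mice labelled wild-type. There were 2 tumour libraries labelled LNP-Sirpa treatment and 2 labelled control, all with 1 batch label. The series title concerns degradation of SIRPα, the inhibitory receptor on myeloid cells whose ligand is CD47. The labels do not say what the control animals received, give no age, dose or time, and do not say whether the 2 libraries of a group came from separate animals, so p-values below measure a spread between libraries that may be technical.

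Macrophages in tumours take up states that depend on hypoxia, cytokines and the stage of their differentiation from blood monocytes. Inhba encodes the βA subunit of activin A, a ligand of the TGF-β family that is held in check by follistatin. Thbs1 encodes thrombospondin-1, a matrix glycoprotein that binds CD36 and CD47 and can activate latent TGF-β, and Cxcl3 encodes a chemokine that draws neutrophils through CXCR2. Of the other genes that mark the cells, Met encodes the receptor of hepatocyte growth factor, Plcb1 a phospholipase C downstream of G-protein-coupled receptors, and Slpi a secreted inhibitor of neutrophil proteases.

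The promoter windows of Cxcl3, Inhba, Met and Slpi are shown because these genes define or mark the cells. Each runs from 250 bases before a start site in RefSeq to 50 bases after it, 5′ to 3′ on the strand of the gene. The build is GRCm38.p6, a different one from the GRCm39 of the count matrices. The RefSeq spans of Inhba and Met begin further upstream, at 16004256 and 17463349, so their windows do not cover the upstream end of the gene. Capitals mark matches on either strand to an NF-kB motif (GGGNN followed directly by TTTCC), an AP-1 motif (TGANTCA) or a core of the hypoxia response element (NACGTG, which in the form cacgtg is also an E-box). Among 32851 mouse promoter windows of this length, 1.63% held the NF-kB motif, 7.81% the AP-1 motif and 19.6% the hypoxia core.
Cxcl3 (chr5:90785851-90786150, plus strand): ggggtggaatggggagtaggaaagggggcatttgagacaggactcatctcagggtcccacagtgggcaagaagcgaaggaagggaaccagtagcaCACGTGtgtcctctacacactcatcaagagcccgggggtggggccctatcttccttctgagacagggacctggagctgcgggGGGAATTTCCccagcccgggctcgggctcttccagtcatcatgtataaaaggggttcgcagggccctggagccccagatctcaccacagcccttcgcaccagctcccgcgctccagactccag
Inhba (chr13:16011601-16011900, plus strand): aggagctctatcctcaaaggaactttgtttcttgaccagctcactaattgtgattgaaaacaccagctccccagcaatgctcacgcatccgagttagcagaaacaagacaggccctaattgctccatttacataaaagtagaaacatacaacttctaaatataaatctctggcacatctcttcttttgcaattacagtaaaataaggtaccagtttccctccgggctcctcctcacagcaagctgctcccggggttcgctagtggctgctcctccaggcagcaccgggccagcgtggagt
Met (chr6:17463707-17464006, plus strand): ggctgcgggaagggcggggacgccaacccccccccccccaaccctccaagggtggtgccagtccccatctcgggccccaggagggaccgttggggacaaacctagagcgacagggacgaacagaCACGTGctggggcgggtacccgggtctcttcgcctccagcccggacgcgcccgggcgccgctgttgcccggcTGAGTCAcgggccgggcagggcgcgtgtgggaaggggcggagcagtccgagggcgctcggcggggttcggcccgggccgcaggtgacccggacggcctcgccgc
Slpi (chr2:164356458-164356757, minus strand): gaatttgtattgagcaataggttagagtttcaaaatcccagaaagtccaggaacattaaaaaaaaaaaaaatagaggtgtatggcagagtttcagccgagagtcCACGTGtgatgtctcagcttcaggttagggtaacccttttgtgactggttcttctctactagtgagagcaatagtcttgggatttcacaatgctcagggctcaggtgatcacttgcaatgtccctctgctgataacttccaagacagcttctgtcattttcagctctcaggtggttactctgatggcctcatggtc
The Cxcl3 window held an NF-kB match whose first base was at position -73 from the start site and a hypoxia core at position -155. The Met window held an AP-1 match at position -54 and a hypoxia core at position -126, the Slpi window a hypoxia core at position -146, and the Inhba window none of the 3 motifs. A match describes these letters and is not evidence of a bound factor.

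The LNP-Sirpa libraries held 10348 and 9008 barcodes and the control libraries 7511 and 10890, each barcode with at least 1000 UMIs. Barcode names are running labels rather than sequences, and 4556, 429 and 16 names occurred in 2, 3 and 4 libraries. Members had a median of 4418 and 6200 UMIs in the LNP-Sirpa libraries, against 7900.5 and 7038 in the control libraries, so the LNP-Sirpa members were the shallower cells. Summed over members, levels rested on 1055981 and 4377521 UMIs in LNP-Sirpa, against 2199750 and 4256534 in control. Levels are given as CPM, in which every sum is scaled to the same total, and LNP-Sirpa 1, with the fewest members and UMIs, is the least precise of them.

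Macrophage markers were found in nearly all members, but were also widespread in cells with T cell RNA. At least 3 UMIs of listed macrophage markers (Csf1r, Adgre1, C1qa, C1qb, C1qc, Fcgr1, Cd68 and Mertk) were found in 179 of 185 and 591 of 598 LNP-Sirpa members and in 242 of 242 and 523 of 524 control members. Among all barcodes with at least 3 UMIs of Cd3d, Cd3e and Cd3g together, 92.6% of 2548 and 86.1% of 1472 in LNP-Sirpa reached the same count, against 96.9% of 517 and 97.99% of 1446 in control, with medians of 24 and 9, against 42 and 73, summed marker UMIs. In members these medians were 15 and 20 in LNP-Sirpa, against 27 and 50 in control. The Lyz2 minimum was likewise reached by 61.5% and 56.1% of these CD3-bearing barcodes in LNP-Sirpa, against 83.9% and 85.8% in control. The CD3-bearing barcodes were deeper, at medians of 9015.5 and 7053.5 UMIs in LNP-Sirpa and 9698 and 9846.5 UMIs in control. So neither count separated the members from them, and the members' low T cell RNA is in part set by the rule. Whether the shared RNA was free in the droplets or came from a second cell was not tested. Csf1r, the receptor of the macrophage growth factor CSF1, stood at 318 and 279 CPM in LNP-Sirpa members, against 418 and 416 CPM in control members. The summed neutrophil markers (S100a8, S100a9, Retnlg, Csf3r, Cxcr2, Ly6g and Mmp8) reached 246 and 198 CPM in LNP-Sirpa members, against 67.3 and 67.2 CPM in control members. Mmp8 alone made up 58.7 and 104 CPM of this in LNP-Sirpa, against 29.5 and 26.8 CPM in control. The rule caps all of these genes but Ly6g and Mmp8. Summed T cell markers were at 97.5 and 35.4 CPM in LNP-Sirpa members and at 23.6 and 48.4 CPM in control members, and summed endothelial markers at no more than 2.8 CPM in any library.

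Some members also carried another cell type's RNA. The summed fibroblast markers (Col1a1, Col1a2, Col3a1, Dcn, Lum and Pdgfrb) were at 440.3 and 82.2 CPM in LNP-Sirpa members, against 1037 and 697 CPM in control members. Barcodes with at least 5 fibroblast UMIs made up 2.16% and 1.67% of LNP-Sirpa members, against 8.68% and 5.15% of control members, and held 85.3% to 97.5% of the fibroblast UMIs of their library's members. Counting fibroblast, mast cell, dendritic, NK and B cell lists together, 13 and 19 LNP-Sirpa members and 32 and 41 control members had at least 5 UMIs of one of them. Each comparison was therefore repeated without these cells, an alternative chosen after seeing the data, and the adjusted p without them is given beside the genes named below whose call it ended. Among signature-low cells the summed mast cell markers reached 4836 and 176 CPM in the LNP-Sirpa libraries, against 2468 and 753 CPM in the control libraries, while in members they were at 147 and 7.8 CPM, against 105 and 25.4 CPM.

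Among cells that passed every other term, the signature was more frequent in both LNP-Sirpa libraries than in either control library, although the members' share of all barcodes overlapped between the groups. Members were 24.8% and 28.7% of these cells in the LNP-Sirpa libraries (95% Wilson intervals 21.8% to 28.0% and 26.8% to 30.6%), against 14.2% and 18.7% in the control libraries (12.7% to 15.98% and 17.3% to 20.1%). The intervals cover counting error only. The means were 26.7% ± 2.73 in LNP-Sirpa and 16.4% ± 3.13 in control (SD, n = 2 each), a difference of 10.3 percentage points. A two-sided exact permutation test gave p = 0.33, which is the smallest that 2 against 2 libraries can give. Of all barcodes, members were 1.79% and 6.64% in the LNP-Sirpa libraries, against 3.22% and 4.81% in the control libraries, and here LNP-Sirpa 1 had the lowest and LNP-Sirpa 2 the highest share (difference of means 0.196 percentage points, exact p = 1).

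The order of the groups was the same at equal depth, over partly different cells. Every cell was thinned to 3000 UMIs, and shallower cells were left out (62 and 91 LNP-Sirpa and 29 and 65 control members). The shares of cells passing the other terms were then 16.5% and 13.98% in LNP-Sirpa and 6.23% and 10.03% in control. The exclusion caps were applied to the thinned counts too, so cells over a cap at full depth could pass. Signature-low cells then numbered 881 and 2239 in LNP-Sirpa, against 1656 and 2754 in control. At full depth they numbered 561 and 1489, against 1458 and 2284. The size of the difference depended on the gene. Cells with at least 1 Inhba UMI made up 17.0% and 27.6% in LNP-Sirpa, against 9.18% and 8.76% in control, a difference of 13.3 percentage points. Cells with at least 3 Thbs1 UMIs made up 18.2% and 15.8% in LNP-Sirpa, against 9.41% and 15.1% in control, where LNP-Sirpa 2 and control 2 lay close together. Free RNA in the droplets could also carry signature UMIs: of T cells with under 5 Lyz2 UMIs, 4.57% of 962 and 2.51% of 638 passed the signature minimum in LNP-Sirpa, against 0 of 81 (which allows up to 3.70%) and 0.5% of 200 in control, at median depths of 4834.5 and 3492 UMIs, against 3646 and 3935.5 UMIs. Its part in the difference of shares was not tested.

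**Figure D1:**
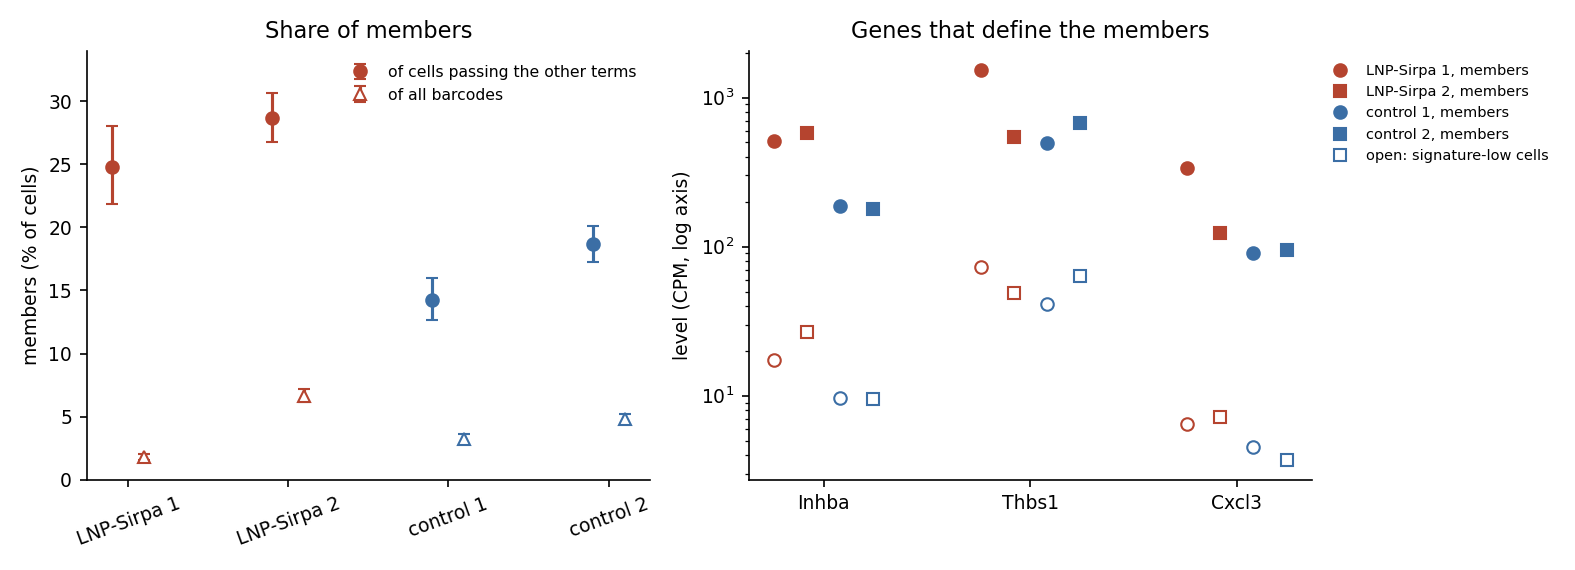
Left, members in each library as a percentage of cells that passed the other terms of the rule (filled circles) and of all barcodes (open triangles), with 95% Wilson intervals; right, level of Inhba, Thbs1 and Cxcl3 in CPM on a log axis, filled for members and open for signature-low cells. The filled circles at 24.8% and 28.7% in LNP-Sirpa lie above those at 14.2% and 18.7% in control, and Inhba in members at 508 and 576 CPM lies above 186 and 179 CPM.

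The exclusion terms removed different cells in the 2 groups. Cells with the signature and the Lyz2 minimum were 15.98% and 19.9% of barcodes in the LNP-Sirpa libraries, against 9.73% and 13.3% in the control libraries. Of them, 69.9% and 40.6% failed the interferon term in LNP-Sirpa, against 8.89% and 21.4% in control, and 48.9% and 29.7% failed the monocyte term, against 14.1% and 8.27%. The resident macrophage term ran the other way, failing 18.02% and 4.84% in LNP-Sirpa and 43.4% and 40.8% in control. The rule kept 11.2% and 33.3% of these cells as members in LNP-Sirpa, against 33.1% and 36.1% in control. Without the monocyte and interferon terms there were 847 and 1191 members in LNP-Sirpa, 8.19% and 13.2% of barcodes, against 296 and 664 members in control, 3.94% and 6.10% of barcodes.

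Members held the smaller part of the Inhba RNA of their libraries. Over whole libraries Inhba stood at 119 and 148 CPM in LNP-Sirpa, against 20.7 and 23.1 CPM in control, and members carried 5.27% and 24.1% of its UMIs in LNP-Sirpa, against 28.8% and 36.3% in control. Cells that met the signature and Lyz2 minima but failed an exclusion carried 64.7% and 49.8% of Inhba UMIs in LNP-Sirpa, against 51.4% and 40.1% in control. Cxcl3 stood at 44.3 and 31.9 CPM over whole LNP-Sirpa libraries, against 9.05 and 10.7 CPM over whole control libraries, with 9.39% and 24.1% of its UMIs in members, against 32.2% and 41.4%. Statements below on members therefore cover the part of the signature-bearing cells that was low in monocyte, interferon and resident macrophage genes.

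**Figure D2:**
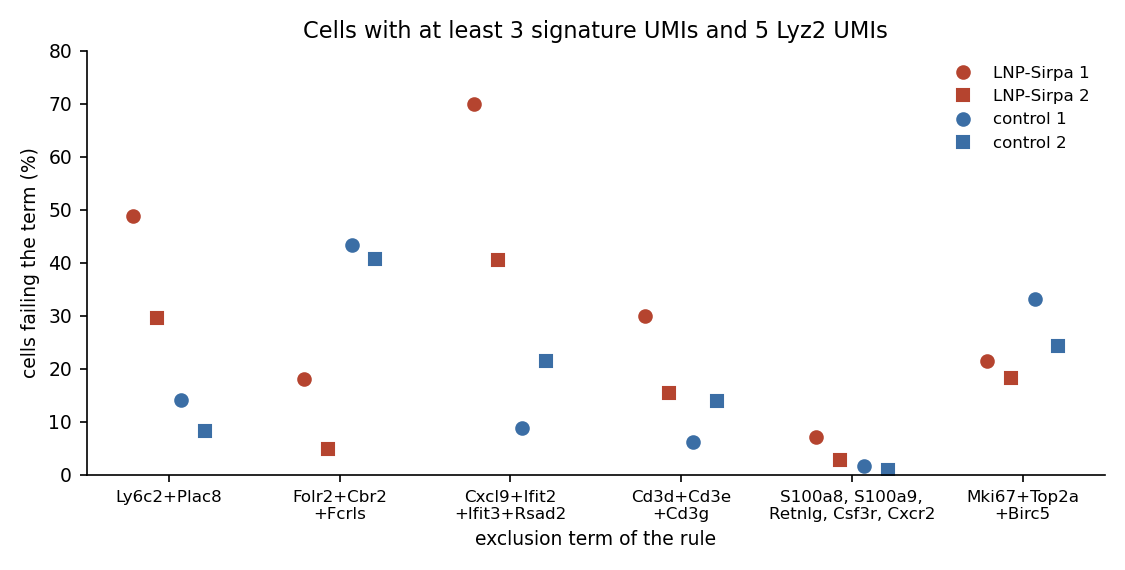
Percentage of cells with at least 3 signature UMIs and 5 Lyz2 UMIs that failed each exclusion term of the rule, per library. The interferon term (69.9% and 40.6% in LNP-Sirpa, against 8.89% and 21.4% in control) and the resident macrophage term (18.02% and 4.84%, against 43.4% and 40.8%) separate the groups in opposite directions.

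The signature genes themselves chose the members, so their levels are given without a test. Inhba was at 508 and 576 CPM in LNP-Sirpa members, against 186 and 179 CPM in control members, and both LNP-Sirpa values lay above both control values. Thbs1 was at 1524 and 540.3 CPM in LNP-Sirpa members, against 494 and 671 CPM in control members, and Cxcl3 at 338 and 124 CPM, against 90.9 and 94.2 CPM. Thbs1 overlapped between the groups, and the high values of Thbs1 and Cxcl3 were those of LNP-Sirpa 1. An Inhba UMI was found in 49.7% and 61.9% of LNP-Sirpa members, against 35.5% and 27.9% of control members. Members chosen by Thbs1 alone, with neither Inhba nor Cxcl3 detected, were 33.5% and 25.9% in LNP-Sirpa and 49.2% and 60.1% in control.

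Of the marker genes outside the rule, Met rose in LNP-Sirpa members, while Plcb1 and Slpi did not pass the test. Met was at 79.5 and 57.1 CPM in LNP-Sirpa members, against 29.5 and 15.04 CPM in control members (log2 fold change 1.67 ± 0.29 SE, adjusted p = 0.00853 by edgeR's quasi-likelihood test with Benjamini-Hochberg adjustment over all genes, as in every adjusted p below). Its adjusted p was 0.0523 without cells of other types. Plcb1 was at 192 and 73.1 CPM in LNP-Sirpa members, against 34.1 and 18.1 CPM in control members (2.34 ± 0.53, adjusted p = 0.107), and Slpi at 268 and 137 CPM, against 109 and 86.0 CPM (1.04 ± 0.26, adjusted p = 0.0501). For all 3 genes the groups did not overlap, as for 47.9% of the genes tested. Sirpa, the gene named in the treatment, was at 429.9 and 364 CPM in LNP-Sirpa members, against 359 and 392 CPM in control members (0.10 ± 0.21, adjusted p = 0.873), and the groups overlapped. Its ligand gene Cd47 was at 387 and 242 CPM in LNP-Sirpa members, against 204 and 165 CPM in control members (0.78 ± 0.23, adjusted p = 0.079).

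The minimum of 3 signature UMIs cut a continuous range. Just inside it, 33 and 142 LNP-Sirpa and 76 and 128 control members had exactly 3 signature UMIs, and just outside it 52 and 192 LNP-Sirpa and 107 and 209 control cells had 2. Met was at 18.3 and 22.9 CPM in LNP-Sirpa and 6.15 and 8.32 CPM in control cells with 3 UMIs, and at 17.3 and 9.35 CPM and 7.34 and 9.52 CPM in cells with 2. Along the whole range, without cells of other types, Hilpda rose in step: in LNP-Sirpa 2 it was at 259, 348, 534, 679 and 1052 CPM in cells with 0, 1 to 2, 3 to 5, 6 to 10 and over 10 signature UMIs, and in control 2 at 173, 219, 361.5, 404 and 863.5 CPM. Hilpda encodes a lipid droplet protein induced in hypoxia. Met reached 177 and 111 CPM in LNP-Sirpa cells with over 10 signature UMIs, against 56.8 and 38.4 CPM in such control cells. The complement gene C1qa ran the other way, at 651 and 1191 CPM in LNP-Sirpa cells with over 10 signature UMIs and at 3868 and 3060 CPM in LNP-Sirpa cells with none. In control it was at 1151 and 2128 CPM with over 10 and at 2950 and 3834 CPM with none.

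**Figure D3:**
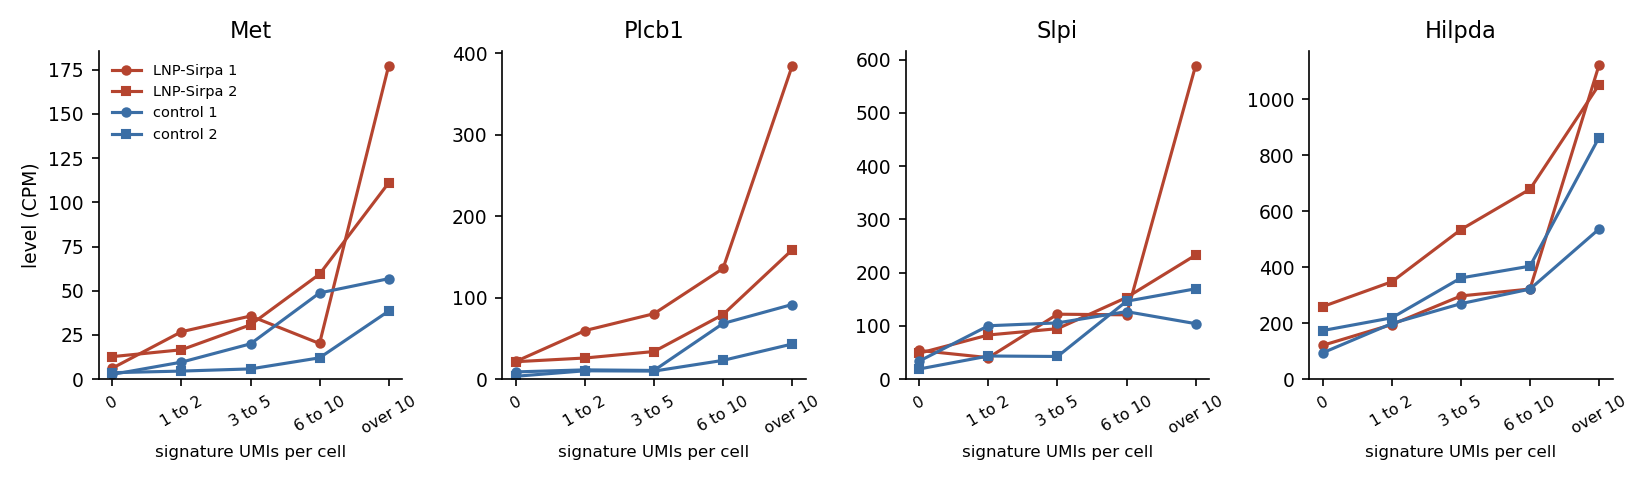
Level of Met, Plcb1, Slpi and Hilpda in CPM by the number of signature UMIs per cell, from cells without the signature (0) to over 10, with 1 line per library and cells of other types left out. In cells with over 10 signature UMIs Hilpda was at 1122 and 1052 CPM in LNP-Sirpa and at 536 and 863.5 CPM in control, and Met dipped to 20.1 CPM at 6 to 10 UMIs in LNP-Sirpa 1, where 37 cells were summed.

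Set against signature-low cells, members had 10 genes outside the rule at 2 or more times the level in every library, among them the lipid droplet gene Hilpda, the proteases Mmp8 and Mmp19, the cytokine gene Il1a and the cystine transporter Slc7a11. The rule used this contrast, so it is described without a test. Of 2676 genes with a mean of at least 50 CPM in members, 20.7% were higher and 20.1% lower in members of every library, and 0.374% were at least 2 times as high in every library: Plcb1, Mmp8, Hilpda, Slpi, Mmp19, Rnf217, Gsr, Il1a, Gab1 and Slc7a11. In the other direction 1 gene (0.0374%) was at most 0.5 times as high in every library, Gzmc, a granzyme gene of lymphocytes that is named here after its values were seen. Hilpda was at 563 and 671 CPM in LNP-Sirpa members, against 121 and 275 CPM in LNP-Sirpa signature-low cells, and at 292 and 432 CPM in control members, against 104 and 160.4 CPM in control signature-low cells. Mmp8, a neutrophil-type collagenase, was at 58.7 and 104 CPM in LNP-Sirpa members, against 7.25 and 28.8 CPM in LNP-Sirpa signature-low cells, and at 29.5 and 26.8 CPM in control members, against 8.88 and 5.34 CPM in control signature-low cells. Both genes were higher in members of all 4 libraries. Slc7a11, the cystine transporter that feeds glutathione synthesis, was at 342 and 267 CPM in LNP-Sirpa members, against 84.5 and 130.0 CPM in LNP-Sirpa signature-low cells, and at 188 and 116 CPM in control members, against 55.7 and 48.2 CPM.

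**Figure D4:**
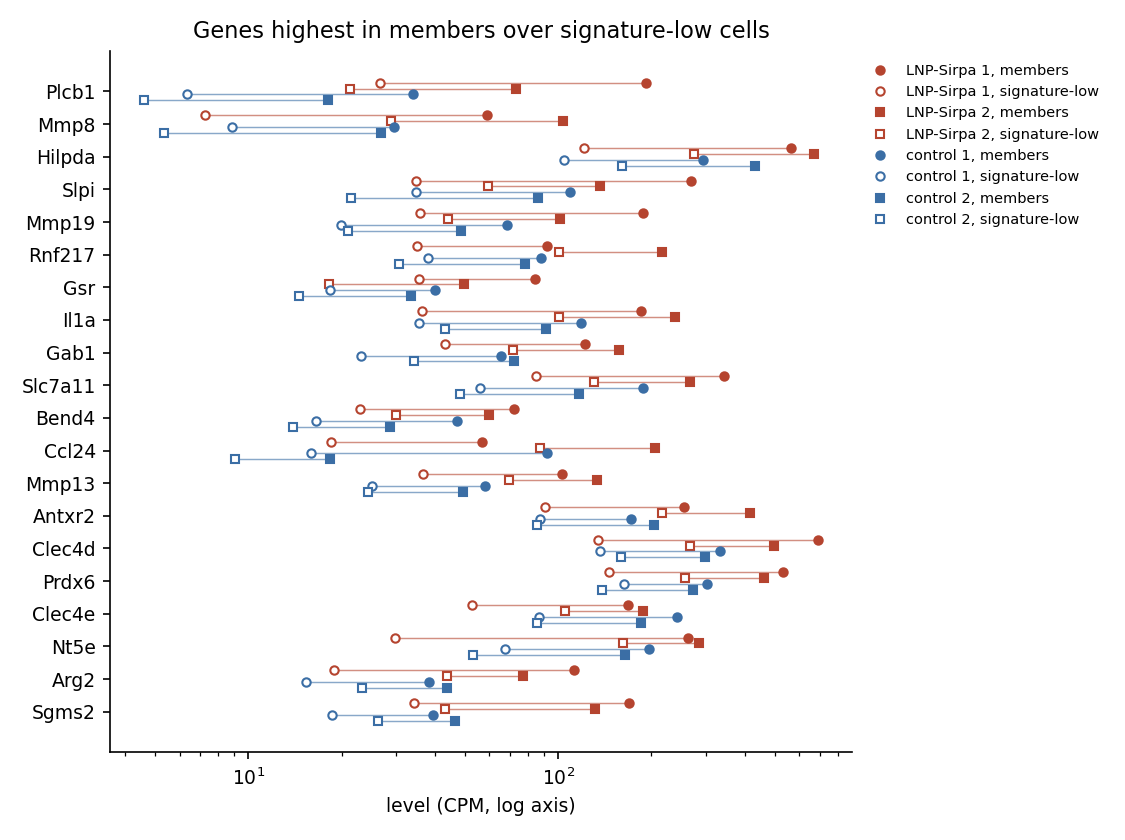
Level in CPM (log axis) of the 20 genes outside the rule with the largest ratio of members (filled) to signature-low cells (open) in the library where that ratio was smallest, with 1 line per library. Members lie to the right of signature-low cells on every line, for Hilpda at 563 and 671 CPM, against 121 and 275 CPM in LNP-Sirpa.

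Lists of genes by function were read against a background of 9.75% of all 10698 tested genes higher and 24.1% lower in members of every library. Of 26 tested glycolysis and hypoxia genes, 21 were higher and 0 lower in members of every library, with a median ratio of 1.35 against 0.930 over all genes. With cells of other types left out, 20 of these 26 were higher, against 8.13% of all genes, with 24.6% of all genes lower. Egln3, an oxygen sensor induced by HIF, was at 77.7 and 70.1 CPM in LNP-Sirpa members and at 35.5 and 56.6 CPM in control members, against 10.1 and 45.7 CPM in LNP-Sirpa signature-low cells and 21.7 and 32.9 CPM in control signature-low cells. Of 13 coagulation and plasminogen genes 9 were higher and 1 lower (median ratio 1.79), among them F7 and F10, which encode clotting factors, and Thbd, which encodes thrombomodulin. Of 10 arginine and nitric oxide genes 6 were higher and 0 lower, and of 14 IL-1 family and inflammasome genes 7 were higher and 0 lower. All 3 tested neutrophil-recruiting chemokines outside the rule were higher: Cxcl2 was at 5694 and 7229 CPM in LNP-Sirpa members and 6269 and 5902 CPM in control members, against 2269 and 4518 CPM in LNP-Sirpa signature-low cells and 2716 and 2840.0 CPM in control signature-low cells.

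Other lists lay below their signature-low counterparts. Members were the deeper cells, at medians of 4418 and 6200 UMIs in LNP-Sirpa and 7900.5 and 7038 UMIs in control. Signature-low cells had medians of 2718 and 4946 UMIs in LNP-Sirpa and 4021 and 3940.5 UMIs in control. The caps on interferon and resident macrophage genes were fixed UMI counts, which in deeper cells stand for lower CPM. Their part in the counts of lower genes was not tested. Of 18 tested interferon gamma response genes 0 were higher and 10 lower in members of every library, of 24 type I interferon genes 1 was higher and 13 lower, of 15 MHC class I presentation genes 0 were higher and 11 lower, and of 9 MHC class II genes 0 were higher and 6 lower. With cells of other types left out, the lower genes were 11 interferon gamma, 10 type I interferon, 6 class I and 2 class II genes of these, and the class II share was then near the 24.6% of all genes. Of 11 resident macrophage genes outside the rule 1 was higher and 7 lower (median ratio 0.72). Activin and TGF-β signalling genes were mixed, with 4 of 17 higher and 3 lower: Acvr2a, an activin receptor, was at 39.8 and 42.0 CPM in LNP-Sirpa members and 33.6 and 20.4 CPM in control members, against 27.8 and 35.1 CPM in LNP-Sirpa signature-low cells and 19.2 and 20.2 CPM in control signature-low cells. Of the thrombospondin receptors and matrix adhesion genes, 9 of 16 were higher and 3 lower.

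Members that carried Inhba differed from members that carried Thbs1 without Inhba, which is again a description of cells split by rule genes. Without cells of other types, Inhba was detected in 85 and 351 LNP-Sirpa members and 62 and 118 control members, and Thbs1 without Inhba in 86 and 218 LNP-Sirpa members and 143 and 353 control members. Met was at 135.5 and 79.3 CPM in Inhba-bearing and 38.5 and 25.9 CPM in Thbs1-only LNP-Sirpa members, and at 79.5 and 46.3 CPM in Inhba-bearing and 18.5 and 5.77 CPM in Thbs1-only control members. Slpi was at 463 and 188 CPM in Inhba-bearing and 135 and 79.0 CPM in Thbs1-only LNP-Sirpa members, and at 267 and 294 CPM in Inhba-bearing and 50.2 and 40.0 CPM in Thbs1-only control members. Both marker genes thus lay with Inhba in all 4 libraries. Of 2651 genes with a mean of at least 50 CPM, 327 were higher and 457 lower in Inhba-bearing members of every library. The genes named here come from the largest ratios in each direction. Dcstamp, a gene of macrophage fusion, was 2.32 and 2.23 times as high in Inhba-bearing members of LNP-Sirpa and 2.09 and 2.25 times as high in those of control. C1qa was at 957 and 1478 CPM in Inhba-bearing and 2424 and 2564 CPM in Thbs1-only LNP-Sirpa members, and at 874 and 1877 CPM in Inhba-bearing and 2083 and 3759 CPM in Thbs1-only control members. Mrc1, the mannose receptor, was lower in Inhba-bearing members of every library too, at 163 and 219 CPM in LNP-Sirpa and 179 and 186 CPM in control, against 426 and 391 CPM in Thbs1-only LNP-Sirpa members and 315 and 370.4 CPM in Thbs1-only control members.

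LNP-Sirpa members differed from control members in interferon response, arginine metabolism, matrix protease and MHC class I presentation genes, and in single genes of other lists. Of 10698 tested genes outside the rule, 379 (3.54%) passed: 242 (2.26%) rose and 137 (1.28%) fell in LNP-Sirpa members, with a median log2 fold change of -0.02 over all genes. Without cells of other types, 99 of 9901 genes rose and 28 (0.283%) fell, and without control 1 the counts were 83 and 59. With LNP-Sirpa 1 left out they were 545 and 348, and with LNP-Sirpa 2 left out 525 and 324. With a library left out, its group holds only 1 library, so the replicate spread in such a fit comes from the other group alone. Of 67 named genes past the threshold, 33 also passed it without cells of other types and 23 without the monocyte and interferon terms.

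Part of the interferon genes outside the rule rose, while the rule caps 4 others at a fixed UMI count. LNP-Sirpa members were shallower, at medians of 4418 and 6200 UMIs, against 7900.5 and 7038 UMIs. A fixed cap stands for higher CPM in shallower cells, and its part in the rise was not tested. Of 24 tested type I interferon response genes outside the rule 8 rose and 0 fell, with a median log2 fold change of 2.01, and of 18 interferon gamma response genes 11 rose and 0 fell, with a median of 1.39. In each list 8 genes rose without cells of other types. With cells chosen on counts thinned to 3000 UMIs, 3 type I and 4 interferon gamma genes rose, at list medians of 2.10 and 1.15. Zbp1, a nucleic acid sensor, was at 223 and 108 CPM in LNP-Sirpa members, against 37.7 and 39.5 CPM in control members (2.06 ± 0.28, adjusted p = 0.00249). Rtp4, a receptor-transporting protein induced by interferon, was at 111 and 56.4 CPM in LNP-Sirpa members, against 17.3 and 18.3 CPM in control members (2.17 ± 0.28, adjusted p = 0.00154). In both genes LNP-Sirpa 1 was the highest library and the groups did not overlap. Cxcl10, which draws T cells through CXCR3, was at 185 and 238 CPM in LNP-Sirpa members, against 71.8 and 80.6 CPM in control members (1.52 ± 0.23, adjusted p = 0.00237, and 0.278 with cells chosen on thinned counts). Iigp1, an immunity-related GTPase, was at 128 and 127 CPM in LNP-Sirpa members, against 30.0 and 40.6 CPM in control members (1.86 ± 0.23, adjusted p = 0.000795).

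Signature-low cells showed differences of similar size in some interferon genes and smaller ones in others. The log2 fold change of Gbp2 was 1.67 in members and 1.68 in signature-low cells, and that of Ifi205 was 1.92 and 1.17. Within signature-low cells Gbp2, Ifi205 and Cxcl10 did not pass (adjusted p = 0.186, 0.243 and 0.186). In those cells Zbp1 was at 229 and 115 CPM in LNP-Sirpa and 42.4 and 42.4 CPM in control, and Cxcl10 at 287 and 262 CPM in LNP-Sirpa and 128 and 127 CPM in control. The difference between members and signature-low cells in the treatment effect was 0.01 ± 0.17 for Zbp1 and 0.33 ± 0.17 for Cxcl10 on the log2 scale (SE, adjusted p = 0.997 and 0.555). Without the monocyte and interferon terms, 147 of 12025 genes passed (1.22%), 89 higher (0.74%) and 58 lower (0.482%). Among them were 1 of 24 type I interferon genes and 5 of 18 interferon gamma genes, all higher, at list medians of 2.18 and 1.71. Ifi204, Ifi205, Ifi211, Ifi47, Slfn1, Gbp2, Gbp4, Gbp5 and Gbp6 also rose, but belong to families of related genes, and the counting may have split reads between similar members. Ifi209 rose too, with adjusted p = 0.0273, and did not pass without control 1 (0.105) or without cells of other types (0.0595). Oasl1, another member of such a family, was at 312 and 98.5 CPM in LNP-Sirpa members, against 12.3 and 14.8 CPM in control members, and did not pass (3.84 ± 0.63, adjusted p = 0.0618).

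Antigen presentation split by class. Of 15 tested MHC class I presentation genes 5 rose and 0 fell, with a median of 0.80, while of 9 MHC class II genes none passed and all had lower values (median -0.43). The class I count was 2 without cells of other types. H2-T23, which encodes the ligand of the NK receptor NKG2A, was at 81.4 and 42.5 CPM in LNP-Sirpa members, against 15 and 16.7 CPM in control members (1.89 ± 0.28, adjusted p = 0.00252). Tap1, a peptide transporter subunit, was at 181 and 119 CPM in LNP-Sirpa members, against 58.6 and 81.5 CPM in control members (1.08 ± 0.24, adjusted p = 0.023, 0.299 without control 1 and 0.0665 without cells of other types). Nlrc5, the transactivator of class I genes, rose by a log2 of 1.40 (adjusted p = 0.0267, 0.0912 without control 1 and 0.0657 without cells of other types), and H2-Q7, one of a family of close copies, by 1.25 (adjusted p = 0.00924, and 0.105 without control 1). The class II gene H2-Aa was at 2683 and 2759 CPM in LNP-Sirpa members, against 2844 and 4620.4 CPM in control members, where control 2 was the high library. Without the monocyte and interferon terms 6 of 9 class II genes had higher values in LNP-Sirpa, with a median of 0.05.

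Checkpoint ligands rose in part, with 2 of 13 tested genes higher. Cd274, which encodes PD-L1, was at 243 and 242 CPM in LNP-Sirpa members, against 64.6 and 109 CPM in control members (1.49 ± 0.25, adjusted p = 0.00686, and 0.0627 without control 1). Pdcd1lg2, which encodes PD-L2, was at 29.4 and 21.2 CPM in LNP-Sirpa members, against 10.46 and 9.16 CPM in control members (1.36 ± 0.30, adjusted p = 0.0232), and missed the threshold without control 1 (0.117), without control 2 (0.146) and without cells of other types (0.125). The groups did not overlap in either gene.

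Genes of both arginine-consuming pathways rose in LNP-Sirpa members. Of 10 tested arginine and nitric oxide genes 5 rose and 0 fell, and 2 rose without cells of other types. Nos2, the inducible nitric oxide synthase, was at 233 and 103 CPM in LNP-Sirpa members, against 31.4 and 17.9 CPM in control members (2.78 ± 0.41, adjusted p = 0.0156). Slc7a2, an arginine transporter, was at 262 and 359 CPM in LNP-Sirpa members, against 113 and 122 CPM in control members (1.45 ± 0.23, adjusted p = 0.00366). Both also passed without cells of other types. Arg1, which splits arginine to ornithine and urea, was at 7527 and 8802 CPM in LNP-Sirpa members, against 2671 and 3125 CPM in control members (1.53 ± 0.30, adjusted p = 0.0121), and missed the threshold without control 1 (0.354), without control 2 (0.137) and without cells of other types (0.051). Arg2, its mitochondrial form, was at 113 and 77.0 CPM in LNP-Sirpa members, against 38.2 and 43.7 CPM in control members (1.19 ± 0.23, adjusted p = 0.00976, 0.105 without control 1 and 0.0523 without cells of other types). In signature-low cells Arg1 was at 1689 and 6521 CPM in LNP-Sirpa and 1017 and 1289 CPM in control, so that LNP-Sirpa 2 was the high library there.

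The eicosanoid pathway changed gene by gene, with 2 of 14 tested genes higher and 1 lower. Ltb4r1, a receptor of leukotriene B4, was at 181 and 142 CPM in LNP-Sirpa members, against 28.6 and 38.3 CPM in control members (2.26 ± 0.23, adjusted p = 0.00027). Pla2g4a, the phospholipase that releases arachidonic acid, was at 114 and 134 CPM in LNP-Sirpa members, against 49.1 and 39.2 CPM in control members (1.55 ± 0.23, adjusted p = 0.00213). Alox5, which starts leukotriene synthesis, fell, at 13.3 and 5.25 CPM in LNP-Sirpa members, against 30.5 and 29.6 CPM in control members (-1.94 ± 0.35, adjusted p = 0.00849). So the receptor and the phospholipase were higher where the synthetic enzyme was lower. Ptgs2, the inducible cyclooxygenase, was at 112 and 141 CPM in LNP-Sirpa members, against 79.6 and 74.9 CPM in control members, and did not pass (adjusted p = 0.0773).

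Among cytokines and chemokines few genes passed. Il6 was at 30.3 and 27.6 CPM in LNP-Sirpa members, against 8.64 and 7.75 CPM in control members (1.85 ± 0.29, adjusted p = 0.00298), and was the 1 of 10 tested cytokines that rose. Without the monocyte and interferon terms its adjusted p was 0.148. Il1a was at 186 and 238 CPM in LNP-Sirpa members, against 118 and 91.2 CPM in control members (1.08 ± 0.23, adjusted p = 0.0183, 0.149 without control 2, 0.0526 without control 1 and 0.0523 without cells of other types). Il1b did not follow it, at 1669 and 1944 CPM in LNP-Sirpa members, against 2347 and 2511 CPM in control members (-0.39, adjusted p = 0.512), and neither did Tnf, at 67.2 and 89.3 CPM, against 113 and 104 CPM (-0.40, adjusted p = 0.423). Of 21 NF-kB and TNF response genes and of 14 immediate-early and heat-shock genes none passed in either direction. Saa3, an acute-phase protein gene, was at 23.7 and 17.8 CPM in LNP-Sirpa members, against 3.64 and 3.99 CPM in control members (2.40 ± 0.37, adjusted p = 0.00252).

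Few partners of the signature ligands passed the test. Of 17 tested activin and TGF-β signalling genes outside the rule none passed, with a median of 0.01. Acvr2a had a log2 fold change of 0.69 (adjusted p = 0.184), and Tgfbi, a TGF-β-induced matrix protein gene, was at 775 and 880.2 CPM in LNP-Sirpa members, against 801 and 722 CPM in control members. Of 16 thrombospondin receptor and adhesion genes 1 rose: Cd36 was at 103 and 103 CPM in LNP-Sirpa members, against 55.5 and 63.2 CPM in control members (0.82 ± 0.21, adjusted p = 0.0451), and missed the threshold without control 1 (0.462), without control 2 (0.133), without LNP-Sirpa 2 (0.0611) and without cells of other types (0.186).

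Matrix proteases moved both ways, with 4 of 12 tested genes higher and 2 lower, against 2 and 1 without cells of other types. Mmp8 rose (1.64 ± 0.30, adjusted p = 0.0145). It is also a neutrophil marker, and the neutrophil markers S100a8 and S100a9 were at 111 and 61.5 CPM and at 58.7 and 17.8 CPM in LNP-Sirpa members, against 24.1 and 22.3 CPM and 0.909 and 2.11 CPM in control members, while Ly6g was at 0 in all 4 libraries. Their part in the rise of Mmp8 was not tested. Another collagenase that rose was Mmp13, at 103 and 134 CPM in LNP-Sirpa members, against 58.2 and 49.3 CPM in control members (1.21 ± 0.23, adjusted p = 0.0105, and 0.064 without control 2). Mmp19 was at 188 and 101 CPM in LNP-Sirpa members, against 68.2 and 48.6 CPM in control members (1.30 ± 0.27, adjusted p = 0.0182, 0.0772 without control 2 and 0.0877 without cells of other types). Adam8 rose by a log2 of 1.00 (adjusted p = 0.0163, 0.117 without control 1, 0.176 without control 2 and 0.0609 without cells of other types). Mmp9, the gelatinase, was at 2.84 and 0 CPM in LNP-Sirpa members, against 10.46 and 12.2 CPM in control members (adjusted p = 0.0267, 0.0706 without LNP-Sirpa 2, 0.0834 without control 1 and 0.0509 without control 2). Timp2, a metalloproteinase inhibitor, was the other gene that fell (-1.01, adjusted p = 0.0177, 0.164 without control 1 and 0.47 without cells of other types).

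Of 26 glycolysis and hypoxia genes 2 rose and 0 fell, and none rose or fell without cells of other types. Hif1a, the hypoxia-regulated transcription factor subunit, was at 258 and 167 CPM in LNP-Sirpa members, against 106 and 93.0 CPM in control members (1.09 ± 0.22, adjusted p = 0.013, 0.0679 without control 1, 0.0844 without control 2 and 0.0708 without cells of other types). Hilpda, although it followed the signature closely, did not pass (0.80 ± 0.26, adjusted p = 0.111). Of 13 coagulation genes 2 rose, F7 by a log2 of 0.83 (adjusted p = 0.042) and F10 by 0.87 (adjusted p = 0.0427). F7 missed the threshold without control 1 (0.463), control 2 (0.109) or LNP-Sirpa 2 (0.05), and F10 without control 1 (0.143), control 2 (0.355) or LNP-Sirpa 2 (0.0633). Both missed it too without cells of other types (0.152 and 0.155). Fbxl5, a subunit of the ubiquitin ligase that governs iron homeostasis, was at 350.4 and 379.7 CPM in LNP-Sirpa members, against 96.8 and 63.7 CPM in control members (2.24 ± 0.24, adjusted p = 0.000362). Sgms2, a sphingomyelin synthase, was at 169.5 and 132 CPM in LNP-Sirpa members, against 39.5 and 46.3 CPM in control members (1.81 ± 0.22, adjusted p = 0.000767).

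Many of the named genes that fell are genes of fibroblasts. Sparc, Bgn, Dcn, Igfbp6, Pcolce, Serpinh1, Ccn1 and Cald1, all strongly expressed by fibroblasts, fell in LNP-Sirpa members, with log2 fold changes of -2.45 to -1.12. Sparc was at 238 and 139 CPM in LNP-Sirpa members, against 840.1 and 530.0 CPM in control members, and its log2 fold change was -1.86, against -0.31 without cells of other types. Without those cells Bgn, Serpinh1, Ccn1 and Cald1 turned sign and Dcn was too low to be tested, and the other 7 did not pass (adjusted p of 0.689 to 0.985). Igfbp4, Igf1 and Cx3cr1 also passed the test without those cells. Igfbp4, a gene of the resident macrophage list that encodes a binding protein of insulin-like growth factors, was at 27.5 and 17.1 CPM in LNP-Sirpa members, against 59.6 and 82.5 CPM in control members (-1.76 ± 0.26, adjusted p = 0.00241). Igf1, itself a growth factor gene, was at 18.9 and 6.62 CPM in LNP-Sirpa members, against 36.8 and 35.5 CPM in control members (-1.77 ± 0.36, adjusted p = 0.018, 0.066 without LNP-Sirpa 2 and 0.0562 without control 1). Cx3cr1, the fractalkine receptor, was at 78.6 and 60.8 CPM in LNP-Sirpa members, against 126 and 165 CPM in control members (-1.06 ± 0.22, adjusted p = 0.0177, and 0.177 without control 2). Of the other named genes that fell, Pltp, a phospholipid transfer protein gene, decreased by 1.36 on the log2 scale (adjusted p = 0.0418, 0.0559 without LNP-Sirpa 2 and 0.0685 without control 2). Hmgcs1 and Msmo1, enzyme genes of cholesterol synthesis, fell by 1.08 and 0.85 (adjusted p = 0.0115 and 0.0433, 0.0627 and 0.225 without control 1), and Msmo1 missed the threshold without control 2 (0.149) and without cells of other types (0.0843). Tuba1a, an alpha-tubulin gene, fell by 1.19 (adjusted p = 0.00849, 0.106 without control 1 and 0.15 without cells of other types).

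**Figure D5:**
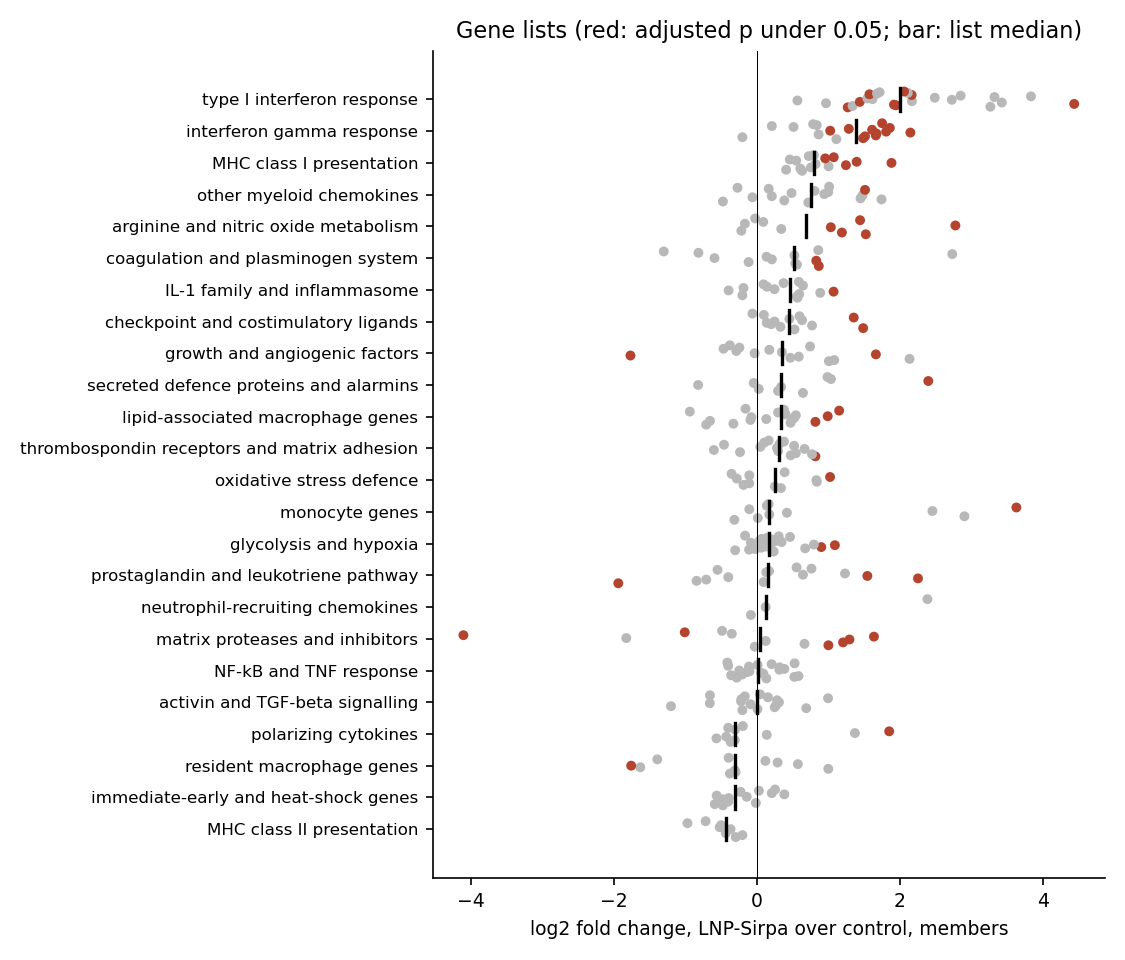
Log2 fold change of LNP-Sirpa members over control members for the tested genes of each list (points), red where the adjusted p was under 0.05, with the list's median as a bar. The type I interferon list has the highest median (2.01, 8 of 24 genes past the threshold) and the MHC class II list the lowest (-0.43, none past the threshold).

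The treatment difference itself was compared between members and signature-low cells with an interaction term. Of 12179 genes, 19 (0.156%) had a higher and 17 (0.14%) a lower treatment difference in members. These counts were 49 and 64 without LNP-Sirpa 1, 82 and 38 without LNP-Sirpa 2 and 50 and 18 without control 2. Without cells of other types 2 remained on the higher side and 0 on the lower, Cacna1d and F13a1. Cacna1d, a calcium channel subunit gene, was at 249 and 165 CPM in LNP-Sirpa and 60.9 and 57.3 CPM in control members (1.31 more than in signature-low cells, on the log2 scale, and 1.29 without cells of other types, adjusted p = 0.0301). F13a1, which encodes a subunit of coagulation factor XIII, was at 276 and 268 CPM in LNP-Sirpa members, against 187 and 188 CPM in control members, while in signature-low cells it was at 145 and 165 CPM in LNP-Sirpa, against 269 and 229 CPM in control. Its values in members and in signature-low cells lay in opposite directions, which differed by 1.14 on the log2 scale, and by 1.21 without cells of other types (adjusted p = 0.0301), although the difference within members alone did not pass (0.56, adjusted p = 0.154). With cells chosen on counts thinned to 3000 UMIs and their full counts summed, neither passed. The interactions were then 0.58 for Cacna1d and 0.45 for F13a1 (adjusted p = 0.827 and 0.991). At a signature minimum of 5 UMIs the Cacna1d interaction was 1.04 and did not pass either (adjusted p = 0.246).

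Antigen presentation and complement genes were on the lower side of the interaction. Of the class II genes, Cd74, H2-Aa, H2-Ab1, H2-Eb1 and H2-DMb1 had a lower treatment difference in members than in signature-low cells, by log2 values of -0.48, -0.49, -0.46, -0.56 and -0.70 (adjusted p = 0.00995, 0.0167, 0.0252, 0.0152 and 0.0252). H2-Eb1 was at 2048 and 1901 CPM in LNP-Sirpa members, against 2175 and 3478 CPM in control members, and at 3370.1 and 2566 CPM in LNP-Sirpa signature-low cells, against 2316 and 3560.4 CPM in control signature-low cells. In signature-low cells the groups overlapped, while in members both LNP-Sirpa values lay below both control values. The complement genes C1qa, C1qb and C1qc, which mark differentiated tissue macrophages, differed the same way, by -0.59, -0.51 and -0.56 (adjusted p = 0.0167, 0.0252 and 0.0252). Hmgcs1, an enzyme gene of cholesterol synthesis, was at 62.5 and 49.8 CPM in LNP-Sirpa members, against 119.6 and 118 CPM in control members, and at 112 and 80.9 CPM in LNP-Sirpa signature-low cells, against 113 and 106 CPM in control signature-low cells (-0.94 ± 0.17, adjusted p = 0.0167). Without cells of other types none of these genes passed, with adjusted p of 0.124 to 0.129 for the class II genes, 0.329 to 0.387 for the complement genes and 0.296 for Hmgcs1. The share of cells with other types' RNA differed between the sets: 7.03% and 3.18% of LNP-Sirpa and 13.2% and 7.82% of control members, against 15.3% and 5.17% of LNP-Sirpa and 21.1% and 15.02% of control signature-low cells. Of the interferon genes named above, Oasl1 had an interaction past the threshold (1.01 ± 0.21, adjusted p = 0.0416, and 0.296 without cells of other types).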

How the data were processed

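Single-cell RNA of 4 libraries was analysed from the matrices that the authors deposited, which hold raw UMI counts, whole numbers for each cell and gene. They were written by PISA 1.0 per the file headers, and aligned with STAR 2.5.1b to GRCm39 per the submitters' processing notes. Neither the gene annotation nor the rule that called cells is stated in the sources used here. The 4 oligo libraries were not analysed here.

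The rule was applied to the counts of every barcode (Python 3.11.15, pandas 2.3.3, numpy 2.4.6, scipy 1.17.1, matplotlib 3.10.9). The members and gene lists were chosen with earlier results of these data known. Counts were summed per library over members and over signature-low cells and tested by the quasi-likelihood F test of edgeR 4.0.16 under R 4.3.3, after filterByExpr and TMM scaling and with robust dispersions (Benjamini-Hochberg over all genes, threshold 0.05), 2 LNP-Sirpa against 2 control libraries. The interaction of treatment and cell set was fitted with the library as a block. The SE of a log2 fold change was not estimated by edgeR. It is the absolute log2 fold change divided by the square root of the F statistic. Genes of the rule were fitted but not counted. Shares were compared with an exact permutation test over libraries. The fits were afterwards tried on counts simulated from their own fitted means and dispersions, with known changes put in. The treatment fit in members recovered 40 of 94 changes of log2 1 and 81 of 99 changes of log2 2. It also called 21 unchanged genes, of 10407 genes in all. Beside the 40 and 81 changes recovered, this was a larger share of the calls than the 0.05 that the threshold is meant to allow. The interaction fit recovered 37 of 98 and 72 of 99 such changes, and called 12 unchanged genes of 11997 in all. These too were more than 0.05 of its calls.

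Doublets were not removed. The highest 4.5% of Scrublet scores per library (scanpy 1.11.5), which held 1 and 17 LNP-Sirpa and 3 and 6 control members, were left out in an alternative, as were cells under 500 UMIs or 300 genes or over 15% mitochondrial UMIs. Other alternatives were DESeq2 1.42.0, its size factors, no filter on low counts, signature minima of 2 and 5 UMIs, and the rule without its monocyte and interferon terms. Further ones were cells thinned to 3000 UMIs, each library left out and a replicate block. Thinned counts chose the cells and gave the shares, while the fits summed the full counts of those cells. Added after seeing the data were members without cells that had at least 5 UMIs of a fibroblast, mast cell, dendritic, NK or B cell marker list.

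Named genes were the marker genes, Sirpa and Cd47, the 12 largest rises and falls past the threshold at a mean of at least 50 CPM, up to 4 genes per list with the smallest p past the threshold, the 20 genes with the largest lowest ratio of members to signature-low cells, and the 6 largest interactions in each direction. Genes of the rule and predicted, ribosomal and mitochondrial genes were left out of all but the first. Other list members are given with their values, and some are not reported here. Promoter windows came from RefSeq (GRCm38.p6).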

Additional observations from a re-analysis of the deposited data

Results flagged for a closer look

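For 12 genes the difference between LNP-Sirpa and control was not the same in members and in signature-low cells by the interaction test of edgeR. On the log2 scale the treatment difference was higher in members by 1.31 for Cacna1d, 1.14 for F13a1, 1.01 for Oasl1, 0.84 for Vav3 (a guanine nucleotide exchange factor of leukocyte signalling), 0.82 for Slc16a10 (an aromatic amino acid transporter) and 0.49 for Cst3 (cystatin C). Their adjusted p-values were 0.0164, 0.00237, 0.0416, 0.0252, 0.0328 and 0.0252. It was lower in members, with values of -0.56 for H2-Eb1, -0.59 for C1qa, -0.70 for H2-DMb1, -0.91 for Msmo1, -0.94 for Hmgcs1 and -1.48 for Col1a2, at adjusted p-values of 0.0152, 0.0167, 0.0252, 0.0252, 0.0167 and 0.0149. Msmo1 and Hmgcs1 both encode enzymes of cholesterol synthesis, and Col1a2 encodes a collagen chain of fibroblasts. Without cells of other types Cacna1d and F13a1 passed, the Col1a2 value was -0.07, and that of Cst3 turned to -0.15. With cells chosen on counts thinned to 3000 UMIs, and at a signature minimum of 5 UMIs, none of the 12 passed.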

How the results depend on the processing

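The counts of genes that rose and fell were 401 and 257 with no filter on low counts, 209 and 74 with DESeq2 (73.9% of calls higher, against 63.9%), 89 and 58 without the monocyte and interferon terms, 58 and 17 after thinning to 3000 UMIs and 99 and 28 without cells of other types. With each library left out they were 83 to 545 and 59 to 348. The interaction counts were 85 and 45 with no filter, 3 and 1 with DESeq2, 6 and 1 at a signature minimum of 2 UMIs, 3 and 2 without the monocyte and interferon terms, 1 and 1 after thinning, 2 and 0 without cells of other types and 21 to 82 and 13 to 64 with each library left out. At a signature minimum of 5 UMIs edgeR called 0 and 0, with 781 genes at an unadjusted p under 0.05, and the smallest adjusted p was 0.0828. The fits after thinning summed the full counts of cells chosen on thinned counts, so they were not fits at equal depth. The cause of these moves was not tested.

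The difference of shares was 7.11 percentage points after thinning, 13.3 with Inhba alone, 4.78 with Thbs1 alone and 2.31 with Cxcl3 alone, and that of all barcodes 5.68 without the monocyte and interferon terms. With each library left out the 2 differences ranged over 8.07 to 12.5 and -2.23 to 2.62 percentage points, so that of all barcodes had no set direction. Without cells of other types the log2 fold changes of Bgn, Cald1, Ccn1 and Serpinh1 turned to 0.11, 0.74, 0.063 and 0.44, and the Cst3 interaction to -0.15.

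The replicate numbers were not stated to pair libraries, and deviations of same-numbered libraries had r = -0.01413 over 10720 genes. With a replicate block 321 genes rose and 194 fell. Of the 67 named genes past the threshold, 62 also passed with DESeq2, 33 without cells of other types, 25 after thinning and 23 without the monocyte and interferon terms, and 36 without control 1. With 2 libraries a group, the smallest exact p for a share is 0.33, and LNP-Sirpa 1 rests on 185 members, which limits genes of low level most.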
